A study of Glycine max with 10 samples.

Results

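Seeds of the field-grown soybean variety Evans harvested at 45 days after flowering (DAF) were compared with seeds harvested at 40 DAF, a step of 5 days late in seed filling. The members are the 2 arrays whose labels give 45 DAF and the 2 whose labels give 40 DAF, 4 of the 10 arrays of the series, chosen by their labelled age alone. The other 6 arrays hold seeds at 25, 30 and 50 DAF, 2 biological replicates at each. All groups share genotype, field and tissue, and no treatment was applied. Pods of several plants were pooled for each replicate. By the methods of the study, only a few of their seeds were then pooled for extraction, and fewest at 45 DAF. A value thus describes a small pool and not a single seed. The results text of the study names 35 DAF for the time point after 30 DAF, whereas its methods and the sample labels give 40 DAF, which is used here.

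A soybean embryo fills its cotyledons with storage protein and oil while it is fed sugars and amino acids through the seed coat. Towards the end of filling it stops importing, loses its green colour and prepares to dry. In that phase seeds are known to accumulate late embryogenesis abundant (LEA) proteins and dehydrins, which protect cell structures as water is lost, together with raffinose family oligosaccharides, tocopherols and other protectants. Abscisic acid favours this programme and gibberellin opposes it. The times compared here fall where filling gives way to maturation.

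The 2 arrays labelled 45 DAF did not resemble each other as replicates at the other ages did. Their signals correlated at 0.8804 over all probe sets, against 0.9207 for the 40 DAF pair and 0.9188 to 0.9271 for the pairs at 25, 30 and 50 DAF. The median standard deviation between replicates on the log2 scale was 0.4228 at 45 DAF and 0.2537 at 40 DAF, and at the remaining ages it lay between 0.2266 and 0.264. Array medians and the share of signals under 50 were alike, at 321.3 and 306.3 with 19.0% and 19.6% at 45 DAF, and at 325.2 and 317.5 with 18.0% and 19.1% at 40 DAF. Because the 45 DAF replicates differ, each is given apart below, and a mean over both is not used as a level. Signals are printed after each array was brought to a common median of 309.9, and differences are on the log2 scale of the median-centred signals, each 45 DAF array minus the mean of both 40 DAF arrays.

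Each array was placed on a line drawn from the mean of the 30 DAF arrays (position 0) to the mean of the 50 DAF arrays (position 1), neither of which belongs to the ages compared. Over 18882 probe sets, 45 DAF replicate 2 lay at 0.506 and 45 DAF replicate 1 at 0.122, against 0.194 and 0.198 for the 40 DAF arrays. Replicate 2 thus stood about midway, while replicate 1 lay nearer to 30 DAF than either 40 DAF array did. The labels give both arrays the same age, and the reason for the gap between them was not tested. Across the 18705 probe sets whose mean over the 4 arrays reached the array median, the difference of replicate 2 from 40 DAF correlated at 0.759 with the difference between 50 and 30 DAF, and that of replicate 1 correlated at -0.404. These are descriptions over probe sets of the same arrays, which are not independent of one another.

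**Figure D1:**
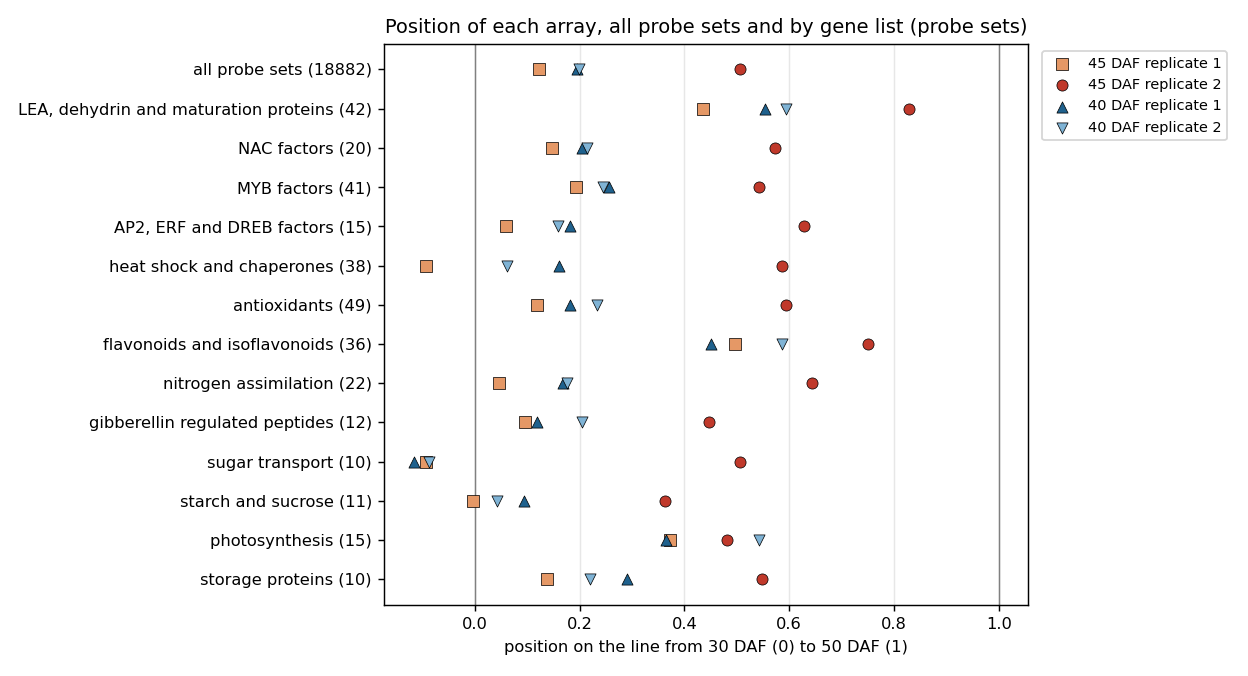
Position of each array (45 DAF replicates 1 and 2, 40 DAF replicates 1 and 2) on the line from 30 DAF (0) to 50 DAF (1), over all probe sets and within 13 gene lists, with the number of probe sets in brackets. Over all probe sets 45 DAF replicate 2 stands at 0.506, and 45 DAF replicate 1 at 0.122 lies left of both 40 DAF arrays. Not every list keeps this order. For photosynthesis 40 DAF replicate 2, at 0.542, lies right of 45 DAF replicate 2, at 0.482. For flavonoids 45 DAF replicate 1, at 0.496, lies right of 40 DAF replicate 1, at 0.45.

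With both 45 DAF replicates in the model (limma with time point and replicate number over all 10 arrays), none of 37593 probe sets differed between 45 and 40 DAF at an adjusted p under 0.05 (background 0%), and 1096 had an unadjusted p under 0.05. Here and below, background is the share of all probe sets considered that met the criterion, not a rate expected without any change. Fitted with 45 DAF replicate 2 alone, 1194 probe sets were called (background 3.18%), 822 higher (2.19%) and 372 lower (0.990%) than at 40 DAF. Fitted in the same way with replicate 1 alone, none was called and 1521 had an unadjusted p under 0.05. A fit on a lone array takes its spread from the replicate pairs of the other ages, which were closer than the 45 DAF pair, so these calls compare that array with the 40 DAF arrays and not 45 DAF seeds in general. They also rest on the dependence of variance on signal, since without a variance trend none was called in replicate 2, and on both 40 DAF arrays, since without 40 DAF replicate 1 there were 732 calls and without 40 DAF replicate 2 there were 362. In what follows, rose and fell refer to calls of replicate 2 alone, and adjusted p-values are from that fit unless another is named.

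Of the 18705 probe sets at or above the median, only 1 lay at least 2-fold above 40 DAF in both 45 DAF arrays (background 0.00535%) and 5 lay as far below in both (0.0267%). Replicate 2 lay 2-fold above 40 DAF at 1195 probe sets (6.39%) and below at 949 (5.07%), and replicate 1 at 33 (0.176%) and 140 (0.748%). In replicate 2 only, with replicate 1 within a log2 of 0.5 of 40 DAF, 842 were higher (4.50%) and 766 lower (4.10%). In replicate 1 only, 7 were higher (0.0374%) and 33 lower (0.176%). The arrays moved 2-fold in opposite directions at 95 probe sets. Of these, 77 were higher in replicate 2 and lower in replicate 1 (0.412%), and 18 were the other way round (0.0962%). At the size of any difference, both 45 DAF arrays lay above both 40 DAF arrays at 1830 probe sets (9.78%) and below both at 1929 (10.3%). With a limit of 0.5 on the log2 scale, 83 (0.444%) were higher and 89 (0.476%) lower in both.

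**Figure D2:**
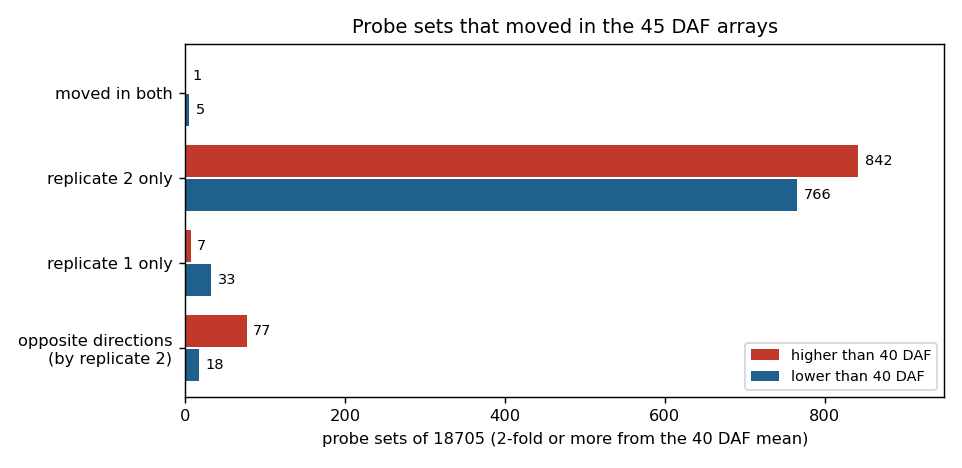
Number of probe sets, of 18705, at least 2-fold higher (red) or lower (blue) than the 40 DAF mean in both 45 DAF arrays, in 1 of them only, or in opposite directions, coloured there by replicate 2. The 842 and 766 probe sets of replicate 2 only far exceed the 1 and 5 that moved in both.

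The filter uses the mean over the 4 arrays, so some probe sets passed it only through replicate 2: of the 842 higher there only, 122 lay below the median at 40 DAF. Genes named below that passed in this way include DREB2A2, SCOF-1 and MS, with mean signals at 40 DAF of 193, 290.9 and 263.7. HSP90A1 passed in this way too, since its mean on the log2 scale at 40 DAF lay below the median. The list medians below use the same filter, so such members enter them through replicate 2. As a description, the difference between 50 and 30 DAF was positive for 831 of the 842 probe sets higher in replicate 2 only and negative for 722 of the 766 lower ones, whereas over all 18705 it was positive for 57.0%. The 77 probe sets higher in replicate 2 and lower in replicate 1 were all higher at 50 than at 30 DAF, with a median log2 difference of 5.92, and all 18 of the reverse kind were lower, with a median of -4.92. Of the 33 lower in replicate 1 only, 25 were higher at 50 than at 30 DAF. Few probe sets of replicate 2 left the range spanned by 40 and 50 DAF: 14 of 18705 lay at least a log2 of 1 above all 4 of those arrays and 43 as far below them. Replicate 1 was alike in this, with 9 above and 42 below. Among the 720 of the 842 whose 40 DAF mean reached the median, a filter that takes no 45 DAF array, the difference between 50 and 30 DAF was positive for 713, beside 56.4% of all 18271 such probe sets.

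None of the 6 probe sets that moved 2-fold in both arrays carries an informative gene symbol, and they are described because they are so few, having been chosen after their values were seen. The 1 that was higher, GmaAffx.57215.1.S1_s_at, gave 443.2 and 2066 at 45 DAF and 220.5 and 171.9 at 40 DAF, where it lay below the median. Among the lower ones, LOC100779260 gave 493.9 and 194.5 at 45 DAF, against 1178 and 916.3 at 40 DAF. Both probe sets continued the same way to 50 DAF, where they gave 11132 and 9291, and 39.9 and 40.7. Gma.12377.1.S1_at gave 428.8 and 119.0 at 45 DAF and 9541 and 518.2 at 40 DAF, so the 40 DAF arrays differed from each other by more than the group means on the log2 scale, and at 50 DAF it stood at 41823 and 48127. The remaining 3 had log2 differences of -1.80 and -1.73, -1.10 and -1.33, and -1.02 and -1.06 in replicates 1 and 2. None of the 6 passed the test with both replicates.

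The genes furthest above 40 DAF in replicate 2 included enzymes of nitrogen and hormone metabolism and several transcription factors. GS1alpha, a glutamine synthetase that joins ammonium to glutamate, gave 211.5 and 14746 at 45 DAF, against 546.3 and 579.8 at 40 DAF. It rose in replicate 2 by a fitted log2 of 4.65 ± 0.32 (SE; adjusted p = 0.000296), and replicate 1 lay 1.41 below 40 DAF. The 45 DAF arrays thus stood on either side of both 40 DAF arrays, and the 50 DAF seeds, at 40771 and 46543, were higher than all 4. GA2OX8, a gibberellin 2-oxidase that inactivates gibberellins, gave 307.0 and 7448 at 45 DAF and 380.2 and 296.8 at 40 DAF. Replicate 1 lay between the 40 DAF arrays, whereas replicate 2 rose by 4.60 ± 0.29 (adjusted p = 0.000161). Another gibberellin 2-oxidase, GA2OX6, rose as well, with 1559 and 5235 at 45 DAF, against 1989 and 1860 at 40 DAF (adjusted p = 0.0349).

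Several transcription factors, some known from stress responses, rose in replicate 2. DREB2A2, of the dehydration-responsive AP2 family, gave 157.3 and 2228 at 45 DAF and 236.4 and 149.6 at 40 DAF (adjusted p = 0.000722). SCOF-1, a zinc finger protein known in soybean as cold-inducible, gave 247.4 and 1584, against 420.6 and 161.2 at 40 DAF (adjusted p = 0.0110). MYB52 gave 450.4 and 2732 at 45 DAF and 572.4 and 379.1 at 40 DAF (adjusted p = 0.00272). For each of these, replicate 1 lay between the 40 DAF arrays and only replicate 2 stood apart. The 40 DAF means of DREB2A2 and SCOF-1 lay below the array median, and both genes reached the filter only through replicate 2. Of 21 probe sets for AP2, ERF and DREB factors, 5 rose and none fell, against 2.19% and 0.990% of all, and the median of 0.06 in replicate 2 was close to that of all probe sets.

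The NAC family, whose members direct senescence and stress responses in many plants, had 41 probe sets, of which 19 reached the filter. By the test of replicate 2, 11 rose and none fell, against 2.19% and 0.990% of all probe sets. The median log2 difference of the 19 was -0.23 in replicate 1 and 1.35 in replicate 2, against 0.01 and -0.02 over all probe sets that reached the filter. NAC4 gave 1089 and 6224 at 45 DAF, against 1190 and 1010 at 40 DAF (adjusted p = 0.00138). NAC3, on its most abundant probe set, gave 226.4 and 3697, against 597.0 and 405.3 at 40 DAF (adjusted p = 0.00432). NAC27, which may share sequence with NAC4 since their probe sets belong to 1 transcript cluster, gave 1249 and 7036, against 1374 and 1347 (adjusted p = 0.00195). NAC12 gave 130.1 and 3477 at 45 DAF and 600.5 and 229.6 at 40 DAF, and its adjusted p was 0.0660.

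Of 109 probe sets for MYB factors, 42 reached the filter, with a median of 0.24 in replicate 2, and 6 rose and none fell, against 2.19% and 0.990% of all. MYB112, the most abundant of those that rose, gave 3750 and 13015 at 45 DAF, against 4560 and 4052 at 40 DAF (adjusted p = 0.00743). For bZIP factors 1 of 103 rose, BZIP122, and for WRKY factors 2 of 104 did, so that these families lay near the background. The bZIP median was 0.03 in replicate 1 and -0.01 in replicate 2.

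**Figure D3:**
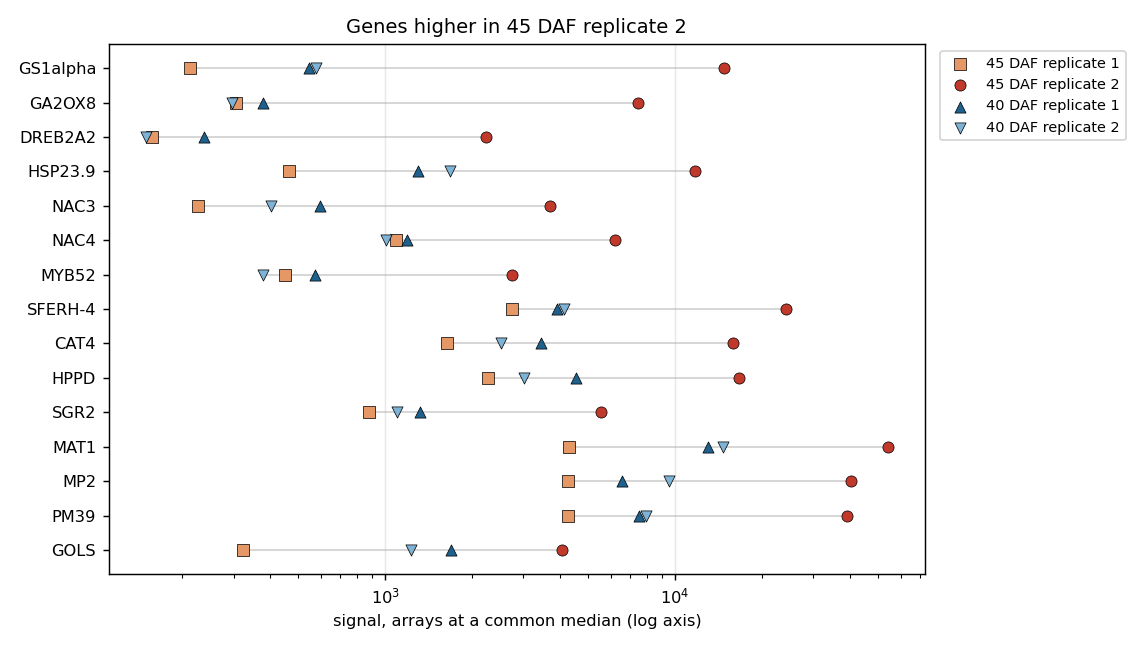
Signals of 15 genes in each 45 DAF array and each 40 DAF array, on a log axis, with arrays at a common median. Replicate 2 at 45 DAF is the highest of the 4 arrays for each gene shown, and replicate 1 lies below or between the 40 DAF arrays, as for GS1alpha at 211.5.

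Several seed maturation genes had higher signals in replicate 2 and lower ones in replicate 1 than at 40 DAF, while the most abundant ones moved little. All 42 probe sets for LEA proteins, dehydrins and seed maturation proteins reached the filter. Their median log2 difference was -0.44 in replicate 1 and 0.62 in replicate 2, beside a median of 3.38 for 50 minus 30 DAF. MAT1, a seed maturation protein, gave 4297 and 54144 at 45 DAF, against 13020 and 14691 at 40 DAF (adjusted p = 0.0162). PM39 gave 4284 and 39231, against 7489 and 7935 (adjusted p = 0.00222), and MP2 gave 4277 and 40567, against 6568 and 9535 (adjusted p = 0.00457). In all 3, which were chosen after their values were seen, the lowest and the highest of the 4 arrays were the 45 DAF replicates. SLE2, an LEA protein and a marker of seed storage tissue, gave 10691 and 49522 at 45 DAF and 15586 and 26479 at 40 DAF (adjusted p = 0.110). On the line from 30 to 50 DAF the list lay at 0.436 and 0.829 in the 45 DAF arrays, against 0.554 and 0.594 at 40 DAF. The 4 most abundant genes of the list differed from these. Their log2 differences in replicate 2 were 0.31 for LEA5, -0.06 for PM30, 0.07 for CP3 and 0.04 for PM12. On its most abundant probe set, PM30 gave 73135 and 80535 at 45 DAF, against 95272 and 73842 at 40 DAF.

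Single genes for protective sugars and antioxidants, more than their lists, set the 45 DAF replicates apart. GOLS, galactinol synthase, which makes the first committed intermediate of raffinose family sugars, gave 324.3 and 4087 at 45 DAF, against 1692 and 1233 at 40 DAF. Both 40 DAF arrays lay between the 45 DAF arrays, and replicate 2 was not called (adjusted p = 0.102). HPPD, which makes the aromatic head of tocopherols, gave 2267 and 16586 at 45 DAF and 4568 and 3014 at 40 DAF (adjusted p = 0.00437), and all 3 of its probe sets that reached the filter rose. The list did not share this rise: the median of the 12 tocopherol probe sets that reached the filter, HPPD included, was -0.39 in replicate 2. CAT4, a catalase, gave 1630 and 15793, against 3453 and 2519 at 40 DAF (adjusted p = 0.000815), and GST24, a glutathione S-transferase, gave 4644 and 25127, against 9248 and 6295 (adjusted p = 0.0156). Of 96 probe sets for antioxidant enzymes, 6 rose and 1 fell, against 2.19% and 0.990% of all, and the list's median was -0.10 in replicate 2. The 1 that fell was a probe set of APX1, an ascorbate peroxidase, at 7238 and 3274 at 45 DAF and 7134 and 6420 at 40 DAF. A further probe set with that symbol rose, at 3681 and 10392, against 4084 and 5083, so the symbol covers transcripts that moved apart.

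SFERH-4, a ferritin that stores iron, rose in replicate 2, with 2743 and 24125 at 45 DAF, against 3901 and 4126 at 40 DAF (adjusted p = 0.000700). Its list went the other way: the 12 probe sets for ferritins and metal binding proteins that reached the filter had a median of -0.47 in replicate 2. SFERH-3 belonged to the few that were lower in replicate 1 only, at 208.5 and 425.1, against 541.0 and 367.8 at 40 DAF, though a more abundant probe set of it gave 718.8 and 618.3, against 1148 and 598.0. The bZIP factor GBF2 belonged to them at 236.2 and 504.0, against 409.7 and 580.5. Neither was called in replicate 1.

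Chaperone genes moved both ways. Small heat shock protein HSP23.9 gave 464.4 and 11725 at 45 DAF, against 1299 and 1677 at 40 DAF, and rose in replicate 2 by 2.84 ± 0.20 (adjusted p = 0.000311), while replicate 1 lay 1.67 below 40 DAF. All 3 of its probe sets rose. HSP90A1, a cytosolic chaperone, gave 197.8 and 1153, against 464.4 and 184.8 (adjusted p = 0.0299). The probe sets of the heat shock factor HSF-01 disagreed: the more abundant gave 4679 and 3507, against 4747 and 5028 (adjusted p = 0.242), and the weaker rose, at 403.9 and 1543, against 495.5 and 376.3 (adjusted p = 0.0163). Those that fell act in folding in the endoplasmic reticulum, through which storage proteins pass. BIP4, an HSP70 of that compartment, gave 5021 and 1171 at 45 DAF and 2124 and 3639 at 40 DAF on its more abundant probe set, which was not called (adjusted p = 0.0990). On its weaker probe set it fell, at 4679 and 610.7, against 1470 and 3496 (adjusted p = 0.0449). PDIL-1, a protein disulfide isomerase, gave 29271 and 6954, against 21848 and 20643 (adjusted p = 0.0233). In total 7 of 48 chaperone and heat shock probe sets rose and 4 fell, against 2.19% and 0.990% of all probe sets, and the list's median was -0.27 in replicate 2. The split by compartment was seen after the values and was not tested.

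Some genes for breakdown of chlorophyll and starch rose in replicate 2, but not all did. SGR, a gene of the chlorophyll breakdown list, gave 1709 and 1690 at 45 DAF, against 1702 and 1782 at 40 DAF. SGR1 and SGR2, which start the dismantling of chlorophyll, gave 939.9 and 4374, and 882.4 and 5554, at 45 DAF, against 1649 and 1395, and 1318 and 1102, at 40 DAF (adjusted p = 0.00853 and 0.00305). By contrast, none of the 18 probe sets for photosynthesis was called, and their median was -0.03 in replicate 1 and 0.45 in replicate 2. The list for starch and sucrose enzymes had medians of 0.004 in replicate 1 and 0.195 in replicate 2. Those of its probe sets that rose were all for beta-amylases, which degrade starch. BMY2 gave 500.2 and 2136 at 45 DAF, against 987.5 and 715.2 at 40 DAF (adjusted p = 0.0444), and its weaker probe set was not called (adjusted p = 0.0791). The symbol BMY1 covers different loci: at one it gave 1331 and 3013, against 1461 and 1188 (adjusted p = 0.0492), and at the more abundant one 55537 and 40953, against 58156 and 54166 (adjusted p = 0.412). MS, malate synthase of the glyoxylate cycle, gave 129.4 and 1240 at 45 DAF and 334.9 and 192.6 at 40 DAF (adjusted p = 0.0232), but ICL1, isocitrate lyase of the same cycle, was not called (adjusted p = 0.304), nor was any of 9 beta-oxidation probe sets. CYSP1, a cysteine protease, gave 1208 and 3590, against 1471 and 1656 (adjusted p = 0.0323).

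Genes that fell in replicate 2 included transcripts of the seed coat and cell wall. HPS, a hydrophobic protein of the soybean seed surface, gave 55179 and 14670 at 45 DAF, against 59501 and 52787 at 40 DAF. It fell in replicate 2 by 1.83 on the log2 scale (SE 0.30, adjusted p = 0.0125), and replicate 1 did not leave the range of the 40 DAF arrays. DFR1, dihydroflavonol reductase of the anthocyanin and tannin branch, gave 989.9 and 155.4, against 1041 and 1003 (adjusted p = 0.00535). Of the 7 probe sets for seed coat markers, 5 were lower in replicate 2 than in both 40 DAF arrays, and 3 in replicate 1. Their summed signals were 83606 and 34561 at 45 DAF, against 94931 and 81552 at 40 DAF, and none was listed at 0. HPS alone made up the largest part of the sums at 40 DAF. Not all markers were lower: ANR1, at low signals, gave 56.4 and 54.0, against 1.4 and 8.5 at 40 DAF. A weaker SSTP-1 probe set gave 301.0 and 292.9, against 218.7 and 322.3. In whole seeds, fewer cells of a tissue and less RNA per cell cannot be told apart, and the part of the seed coat in these results was not tested. Markers of storage tissue summed to 640728 and 634970, against 731605 and 676424, over 14 probe sets, and 16 for leaf and pod to 35072 and 18899, against 29734 and 17589. Of the 14 for storage tissue, 9 were lower than both 40 DAF arrays in replicate 2 and 9 in replicate 1. Higher than both were 3 in replicate 2 and 1 in replicate 1. A majority of lower markers in replicate 2 was thus not particular to the seed coat.

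Of 20 cell wall probe sets 2 fell and none rose, against 0.990% and 2.19% of all, while the list's median of 0.28 in replicate 2 was above that of all probe sets. SBPRP, a proline-rich wall protein, gave 1319 and 70.4 at 45 DAF and 549.8 and 674.9 at 40 DAF, so that the 40 DAF arrays lay between the 45 DAF ones (adjusted p = 0.00140). PRP1, another of that family, gave 1374 and 116.8, against 1695 and 1317 (adjusted p = 0.0434). GASA peptides are small cysteine-rich proteins, listed here as gibberellin regulated, though their response to gibberellin was not tested. Of 20 probe sets for them, 13 reached the filter, with medians of 0.21 in replicate 1 and -0.89 in replicate 2, and 2 fell and none rose. GASA9 gave 3633 and 408.4 at 45 DAF, against 2307 and 2262 at 40 DAF (adjusted p = 0.00743). GASA4 gave 6594 and 1101, against 4616 and 4344 (adjusted p = 0.0121). In both, replicate 1 was the highest and replicate 2 the lowest of the 4 arrays. The 4 most abundant genes of the list differed less from 40 DAF. Their log2 differences in replicate 2 were -0.49 for GASA22, -0.65 for GASA27, -0.45 for GASA12 and 0.14 for GASA14.

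**Figure D4:**
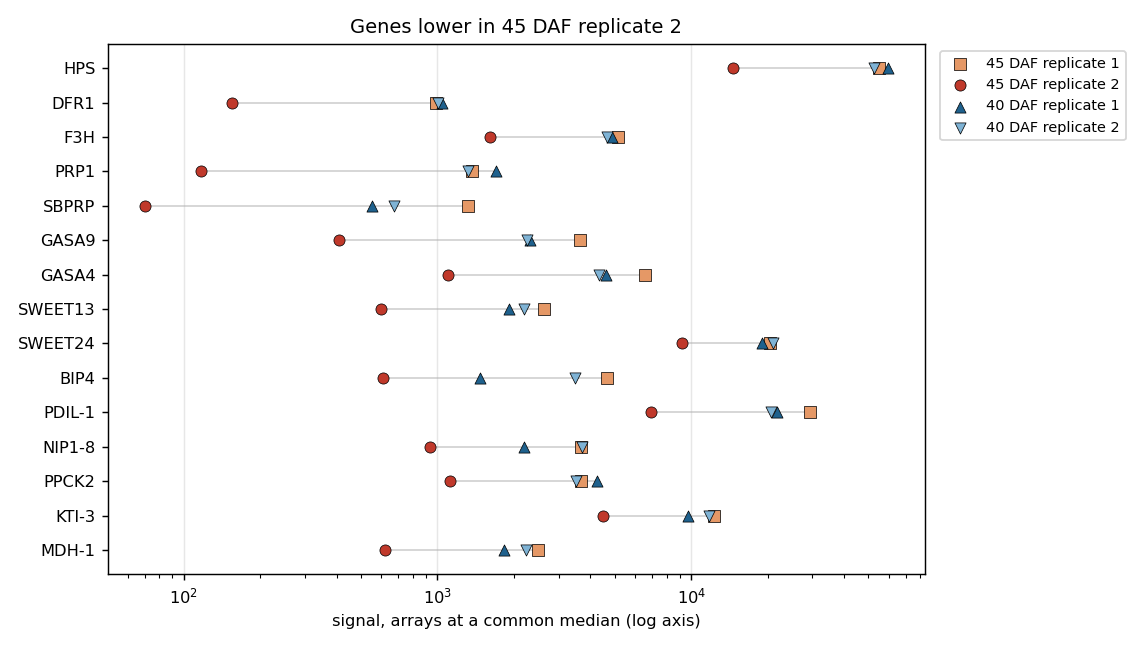
Signals of 15 genes in each 45 DAF array and each 40 DAF array, on a log axis, with arrays at a common median and BIP4 by its weaker probe set. Replicate 2 at 45 DAF is the lowest of the 4 arrays for each gene, as for HPS at 14670, and replicate 1 lies close to the 40 DAF arrays or above them.

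The sugar transport list had a median of 0.06 in replicate 1 and -0.41 in replicate 2, with calls in both directions. SUT1, among its most abundant genes, was higher in replicate 2 but not called. It gave 1937 and 3026 at 45 DAF, against 1632 and 1849 at 40 DAF. SWEET13 and SWEET24, members of a family of sugar exporters, gave 2619 and 599.4, and 20372 and 9176, at 45 DAF, against 1909 and 2198, and 19000 and 20981, at 40 DAF (adjusted p = 0.0137 and 0.0196). Genes of other lists fell too. PPCK2, the kinase that activates phosphoenolpyruvate carboxylase, gave 3695 and 1119, against 4263 and 3501 (adjusted p = 0.0282). ACCB-1, a subunit of the acetyl-CoA carboxylase that commits carbon to fatty acids, gave 1740 and 529.0 at 45 DAF and 1112 and 1420 at 40 DAF (adjusted p = 0.0167). The 13 fatty acid synthesis probe sets had medians of 0.14 in replicate 1 and -0.23 in replicate 2, so ACCB-1 fell further than most of its list. NIP1-8, an aquaporin, gave 3673 and 935.7, against 2200 and 3713 (adjusted p = 0.0330), and the malate dehydrogenase MDH-1 gave 2484 and 620.3, against 1836 and 2240 (adjusted p = 0.0253).

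Of 80 flavonoid probe sets 50 reached the filter, and by the test 2 rose and 4 fell, against 2.19% and 0.990% of all probe sets, so that the share rising was near the background. The list had medians of -0.02 in replicate 1 and -0.07 in replicate 2. F3H, flavanone 3-hydroxylase, which leads towards anthocyanins and tannins, gave 5127 and 1615 at 45 DAF, against 4893 and 4676 at 40 DAF (adjusted p = 0.0105), and its weaker probe set was not called (adjusted p = 0.0980). IFS2, isoflavone synthase, gave 10098 and 23799, against 11185 and 12746 (adjusted p = 0.0376). The 4 probe sets of HIDH, which completes isoflavone synthesis, had log2 differences of 1.07 to 1.38 in replicate 2 and -0.17 to 0.05 in replicate 1, and none of them was called. The phenylpropanoid enzyme 4CL1 was lower in replicate 2 at 1474 and 431.6, against 2084 and 1915, with an adjusted p of 0.272.

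Storage protein transcripts, among the most abundant of these seeds, showed no call in either replicate. GY1, a glycinin, gave 79274 and 81630 at 45 DAF and 99643 and 79118 at 40 DAF. KTI3, a Kunitz trypsin inhibitor, gave 62875 and 61761, against 74280 and 60437, and the seed lipoxygenase LOX3 gave 64319 and 66827, against 73266 and 73402. The storage list had medians of -0.16 in both 45 DAF arrays over its 10 probe sets that reached the filter. The signals of GY1, KTI3 and LOX3 lie in the upper part of each array's range. The highest deposited signals were 95760 and 83212 at 45 DAF and 108616 and 95924 at 40 DAF. Whether the arrays could register a change at such levels was not tested. GY3 departed from the other glycinins with 33426 and 7930 at 45 DAF, against 18216 and 25645 at 40 DAF (adjusted p = 0.261). KTI-3, annotated as a separate Kunitz inhibitor gene, fell in replicate 2, at 12298 and 4498, against 9756 and 11750 (adjusted p = 0.0176), and on a further probe set of nearly the same level was not called (adjusted p = 0.123).

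**Figure D5:**
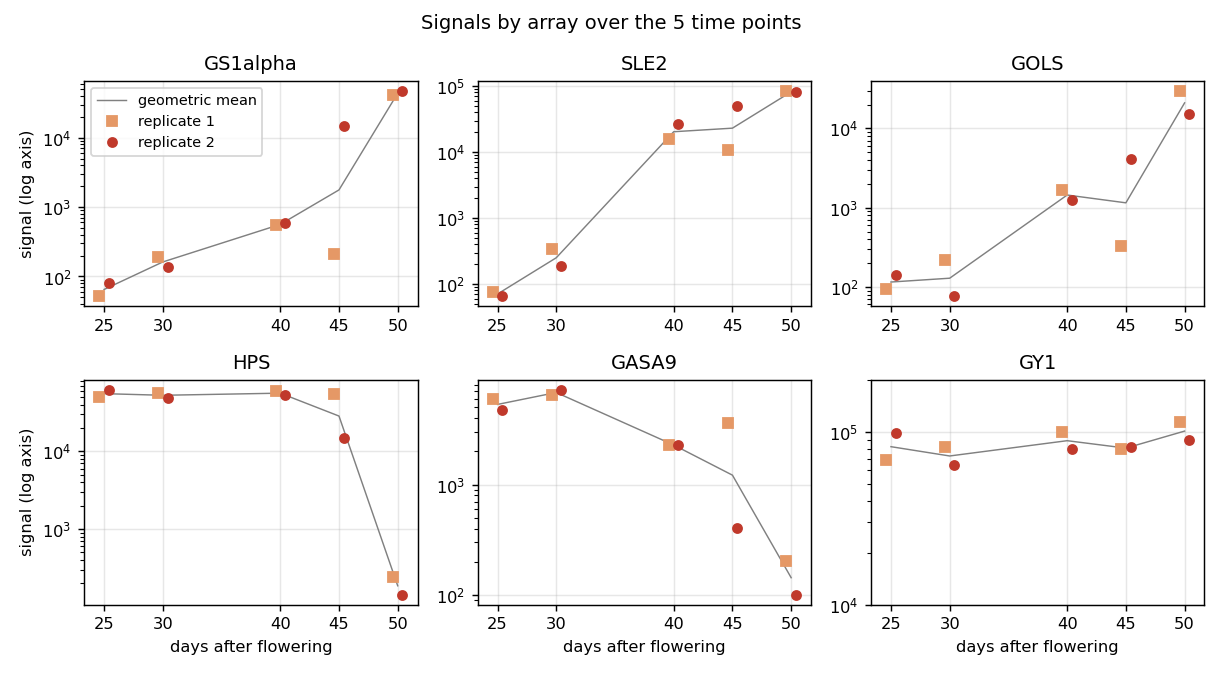
Signals of 6 genes on all 10 arrays, plotted by days after flowering, on a log axis, with a line through the geometric mean of the 2 replicates, shown side by side. At 45 DAF the replicates of GS1alpha (211.5 and 14746) and GOLS (324.3 and 4087) stand far apart, while those of GY1 (79274 and 81630) do not.

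The difference between the replicates at 45 DAF was itself compared in a model that gave each its own level. Replicate 2 differed from replicate 1 at 1176 probe sets (background 3.13%), 816 higher (2.17%) and 360 lower (0.958%). This is a comparison of 2 arrays, whose spread is again taken from the other ages, and without a variance trend none was called. HSP23.9 had an adjusted p of 0.000157 in that comparison and GS1alpha 0.000296. GOLS and SLE2, which were not called against 40 DAF, were called there at 0.00908 and 0.0361.

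Some probe sets without an informative symbol could be described only through the Arabidopsis loci that the study's partial table of called transcripts pairs with them, and they are not independent evidence of change over time. One annotated to the small heat shock protein family gave 3179 and 7256 at 45 DAF, against 2292 and 2963 at 40 DAF (adjusted p = 0.0449). One annotated as a vacuolar ATP synthase subunit gave 709.1 and 164.4, against 489.8 and 616.7 (adjusted p = 0.0314). The probe sets for core abscisic acid signalling had medians of -0.12 in replicate 1 and 0.79 in replicate 2 over 4 that reached the filter, and none was called. A probe set annotated H4, a histone, gave 593.3 and 9061, against 1655 and 667.5 (adjusted p = 0.00705), but probe sets of the same transcript cluster carry symbols of other genes, so its identity is uncertain.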

How the data were processed

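Total RNA of pooled Evans seeds was hybridised by the authors to 1 Affymetrix Soybean Genome Array per sample. The deposited intensity values are linear Microarray Suite 5.0 signals made by the authors, scaled by them per array, for 37593 probe sets with no detection calls, and low signals are uncertain. Precision is limited by the 2 arrays per age, and p-values measure the spread between these pools. Each signal was divided by its array's median and taken to log2. limma 3.58.1 in R 4.3.3 then fitted age and replicate number (moderated variances with a trend, Benjamini-Hochberg adjusted p under 0.05), once with both 45 DAF arrays and once with each alone, and was tested on simulated data. Moved means at least a log2 of 1 from the 40 DAF mean and outside both 40 DAF arrays, among probe sets whose mean over the 4 arrays reached the array median. In 1 array only means that the other stayed under 0.5. Further counts were made in Python with pandas.

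In the probe-to-gene table, 8677 probe sets carried 1 symbol, 370 carried several, 28546 had none, and 1882 of the first kind were informative. RefSeq supplied current symbols for 8652. The rule names the 10 largest differences each way among those moved in both arrays, the 8 largest each way in replicate 2 only and up to 4 in replicate 1 only, the 10 largest each way called in a lone-array fit, up to 4 members of each list, and the markers, with the most abundant probe set per gene. Weaker probe sets are named as such. Genes named for opposite directions, and other list members, were chosen after their values were seen. The members and the 45 gene lists were chosen with earlier results of these data known, and lists drawn through Arabidopsis loci hold only transcripts the study called. Of these, 5 (tocopherols, sugar transport, inositol phosphates, ferritins, seed proteases) were made after gene names were seen, and 2 (oil body proteins by symbol, raffinose family by locus) matched no probe set. Alternatives were other scalings, filters, thresholds, variance models, the model without the replicate block, and each array left out.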

Additional observations from a re-analysis of the deposited data

How the results depend on the processing

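With both 45 DAF replicates in the model, no probe set was called under any scaling, filter or variance model tried, nor without the replicate block (0 calls), and 1096 had an unadjusted p under 0.05. Leaving out 1 of the 10 arrays gave 0 to 1194 calls, the highest without 45 DAF replicate 1. Replicate 2 alone gave 362 to 732 calls with a 40 DAF array left out, 0 without a variance trend, 0 with the ordinary test and 1603 with no replicate block. Of its 1194 calls, 621 and 311 were shared when 40 DAF replicate 1 or 2 was left out, and at least 1101 under each scaling, with the robust prior and without the block. Of 58 named calls, 38 and 18 remained without each of those arrays. Replicate 1 alone gave 0 to 30 calls with a 40 DAF array left out and 1 with the robust prior. Replicate 2 against replicate 1 gave 1802 calls with 50 added to the signal, 1892 with no replicate block and 0 without a variance trend. Same-numbered replicates did not deviate together (correlations -0.0336 to 0.0302 over the 10 pairs of ages). No large effect shared by replicate number was thus seen, but such correlations cannot show whether the numbers mark shared material. The 45 DAF replicates were not set against single 40 DAF arrays by number. The fits of each array alone, the array difference, the opposite class and the limit of 0.5 were chosen after seeing the data.

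Probe sets moved in both arrays, 1 higher and 5 lower, numbered 2 higher with quantile normalization, 3 lower with 50 added, 1064 and 892 with no filter, 0 and 2 at a limit of 1.5, 83 and 89 at a limit of 0.5, and 12 to 21 and 3 to 60 with the 40 DAF level from 1 array. The filter changed these counts most, and with it set on the 40 DAF arrays, an alternative added after seeing the data, they were 0 and 6. In replicate 2 only, 842 higher and 766 lower became 1705 and 2287 with no filter, 275 and 193 at 1.5, and 492 and 485 with the other array under 0.25, and 907 to 915 and 699 to 926 with 1 of the 40 DAF arrays. In replicate 1 only, 7 higher became 3 with that filter, and 7 higher and 33 lower became 481 and 765 with no filter, 1 and 8 at 1.5, 17 to 54 and 36 to 110 with 1 of the 40 DAF arrays, and the lower ones 19 with 50 added and 17 with the other array under 0.25. The opposite class, 77 and 18, became 47 and 11 with 50 added, 600 and 371 with no filter, 21 and 1 at 1.5, and 73 to 97 and 23 to 26 with 1 of the 40 DAF arrays.

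Positions over the probe sets as a whole, not within each list, kept their order, with 45 DAF replicate 1 lowest and replicate 2 highest, under every setting run. Replicate 2 ranged over 0.494 to 0.527 and replicate 1 over 0.108 to 0.156 without each array of the line's ends. The 40 DAF arrays stood at 0.178 to 0.229 and 0.185 to 0.229 there, at 0.217 and 0.221 with quantile normalization, 0.203 and 0.203 as deposited, 0.188 and 0.195 with 50 added, 0.242 and 0.246 over all probe sets, and 0.232 and 0.233 on a line from 25 DAF. The VSPA probe set GmaAffx.33787.1.S1_at, whose signals are at most 34.1, changed sign: replicate 1 lay at 4.71 without 40 DAF replicate 1 and at -0.054 without 40 DAF replicate 2, and replicate 2 at 1.35 and -3.41.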

Other observations

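Further gene lists are given here by the test of 45 DAF replicate 2 against 40 DAF, with medians over the probe sets that reached the filter in replicates 1 and 2. These stand beside a background of 2.19% rising and 0.990% falling and medians of 0.01 and -0.02 over all such probe sets. Of 37 probe sets for nitrogen assimilation, 2 rose, both of GS1alpha, and 2 fell, with medians of -0.09 and -0.36. One that fell was a probe set of GDH1, a glutamate dehydrogenase, at 3589 and 854.0 at 45 DAF and 1603 and 2226 at 40 DAF (adjusted p = 0.0480). A more abundant one, at 5300 and 1212, against 2681 and 3148, was not called (adjusted p = 0.1002). In both, replicate 1 was above and replicate 2 below both 40 DAF arrays. Of 14 probe sets for hormone signalling 4 rose, with medians of -0.09 and 0.79, gibberellin 2-oxidases among them. Aquaporins (45 probe sets) had medians of -0.02 and -0.30 and 2 fell. Of 10 for protease inhibitors and lectin, the Bowman-Birk inhibitor BBI-1 rose, at 279.3 and 1599 at 45 DAF, against 448.7 and 532.3 at 40 DAF (adjusted p = 0.0494), and KTI-3 fell. Of 15 for inositol phosphates ITPK1, an inositol phosphate kinase, rose, at 431.9 and 1276, against 421.8 and 369.6 (adjusted p = 0.0127). Of 10 for seed proteases CYSP1 was the only call, with list medians of -0.09 and 0.34.

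Lipid and housekeeping lists held few calls or none. None was called among 13 probe sets for desaturases (medians -0.12 and -0.35), 4 for raffinose family sugars (-0.13 and 0.34), 6 for chlorophyll synthesis (0.04 and 0.06), 14 for jasmonate (0.02 and -0.45), 12 for ribosome and translation (0.01 and -0.24) or 1 seed master regulator (0.17 and -0.15). Fatty acid synthesis had medians of 0.14 and -0.23, cell walls -0.01 and 0.28, and lipoxygenases -0.09 and -0.19 with 1 fall among 26. In the chlorophyll breakdown list SGR1 and SGR2 rose, whereas its other gene, SGR, had log2 differences of -0.03 and -0.04. MS alone rose in the list for the glyoxylate cycle and beta-oxidation, and H4 alone in that for histones. By locus, 1 of 5 LEA probe sets rose (-0.25 and 0.27), and none was called for oil bodies (-0.37 and 0.06), photosystems (0.17 and -0.16), fatty acid synthesis (0.11 and -0.10), beta-oxidation (0.01 and 0.40), chlorophyll breakdown (-0.30 and 0.47) or the master regulator (0.39 and -0.50). The bZIP gene BZIP111 lay below all 40 and 50 DAF arrays in replicate 2, with 792.6 and 178.1 at 45 DAF, against 380.7 and 492.6 at 40 DAF, and 1263 and 1863 at 50 DAF.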
